A study of Mus musculus with 12 samples.

Results

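The genes described here are 10 markers of pericytes and vascular smooth muscle cells, the mural cells that wrap blood vessels: Pdgfrb, Rgs5, Cspg4, Acta2, Tagln, Myh11, Cnn1, Des, Mcam and Kcnj8. They were taken by gene symbol from tables of 17875 genes, and all 10 were present. RNA was measured by poly(A)-selected, paired-end sequencing of subcutaneous tumours in mice, labelled as colorectal cancer. The 12 libraries form 4 groups of 3. Stress tumours came from tumour-bearing mice under chronic stress. Low-dose and high-dose tumours came from stressed tumour-bearing mice given Xiaochaihu decoction, a traditional herbal mixture, at a lower or a higher dose. Control tumours came from tumour-bearing mice with neither stress nor decoction. Every group therefore carries the subcutaneous tumour, and both decoction groups also carry the stress. The doses in numbers, the tumour cells, the mouse strain and age and the kind of stress are not given in the sources used here. The libraries are numbered 1 to 3 within each group, and no label says that they came from separate mice, so p-values measure the spread between libraries only.

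Mural cells are recruited to new vessels by PDGF-BB, which endothelial cells release and which binds the receptor PDGFRB on pericytes. Pericytes lie on capillaries and carry PDGFRB, the proteoglycan NG2 encoded by Cspg4, and RGS5. Smooth muscle cells lie on arterioles and larger vessels and hold contractile proteins whose genes are driven by serum response factor (SRF) with its coactivator myocardin, through DNA elements called CArG boxes. Fibroblasts, myoblasts, skeletal muscle and some tumour cells express several of the same genes, so none of the 10 marks a mural cell by itself. In whole tumours, fewer cells of a type and less RNA per cell cannot be told apart.

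The promoters printed here are the 250 bases before the annotated start of 4 of the genes, from RefSeq on GRCm38.p6. Acta2 is shown because its window alone held near matches to the CArG box. Rgs5 and Mcam are shown because each followed a vessel marker list in level, and Des because its level followed skeletal muscle genes. Capitals mark CArG boxes with 1 base of the A/T core changed, and all other bases are in lower case.
Acta2, chr19:34255374-34255623, minus strand: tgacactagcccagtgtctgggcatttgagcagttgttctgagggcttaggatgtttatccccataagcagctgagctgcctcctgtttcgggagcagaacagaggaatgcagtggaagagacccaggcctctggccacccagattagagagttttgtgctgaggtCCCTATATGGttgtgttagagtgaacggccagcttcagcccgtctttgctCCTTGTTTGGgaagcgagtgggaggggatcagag
Rgs5, chr1:169655251-169655500, plus strand: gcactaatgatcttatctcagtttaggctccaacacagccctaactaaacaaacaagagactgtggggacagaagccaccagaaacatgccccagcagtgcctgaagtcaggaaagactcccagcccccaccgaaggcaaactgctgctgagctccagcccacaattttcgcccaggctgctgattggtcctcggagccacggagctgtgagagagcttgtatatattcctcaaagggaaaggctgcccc
Mcam, chr9:44134408-44134657, plus strand: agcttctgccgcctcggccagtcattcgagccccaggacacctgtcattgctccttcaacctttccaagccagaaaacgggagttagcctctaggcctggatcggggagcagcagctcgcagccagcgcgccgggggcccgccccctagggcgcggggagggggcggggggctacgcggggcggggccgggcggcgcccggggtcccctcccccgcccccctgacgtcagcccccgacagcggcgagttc
Des, chr1:75360042-75360291, plus strand: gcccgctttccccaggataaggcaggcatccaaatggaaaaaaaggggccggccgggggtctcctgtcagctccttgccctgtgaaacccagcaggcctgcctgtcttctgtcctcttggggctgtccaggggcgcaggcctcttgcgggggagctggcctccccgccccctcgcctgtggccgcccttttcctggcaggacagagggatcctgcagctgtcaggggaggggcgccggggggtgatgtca
RefSeq windows were found for 7 of the 10 genes (Rgs5, Cspg4, Acta2, Cnn1, Des, Mcam and Kcnj8), and both strands were searched. An exact CArG box occurred in 0 of the 7 windows and in 1.47% of 32851 windows of the same length. Sequence outside these 250 bases was not searched, and Pdgfrb, Tagln and Myh11 had no window. The count therefore does not show that any of the genes lacks a CArG box. A CArG box with 1 core base changed occurred in 7.24% of all windows. The Acta2 window held 2 of these, CCCTATATGG at bases -84 to -75 and CCTTGTTTGG at bases -34 to -25, counted back from the start. The motif TGGGAA, present in 21.6% of windows, occurred in the Acta2 window at bases -27 to -22 and overlaps the second of those matches. A match is only a stretch of letters, and binding was not measured. The RefSeq start of Acta2 lies inside the longer gene interval given with its values.

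Levels of different genes were compared in TPM, a transcript's share of its library corrected for transcript length. The libraries held between 16734741 and 17950195 counts each. As means over the 12 libraries, Pdgfrb stood highest at 56.7 ± 14.2 TPM (SD), above 77.5% of the 13453 genes tested, followed by Cspg4 at 46.5 ± 12.5 TPM. The actin gene Acta2 stood at 23.5 ± 11.1 TPM, Mcam at 18.6 ± 6.11 TPM, Tagln at 14.5 ± 11.7 TPM and Rgs5 at 10.6 ± 4.3 TPM. Des stood at 4.99 ± 5.9 TPM, Kcnj8 at 1.5 ± 0.519 TPM and Myh11 at 0.749 ± 0.42 TPM. Cnn1 was lowest at 0.186 ± 0.252 TPM, above 0.803% of the genes tested. Pdgfrb and Cspg4 were thus the most abundant of the 10, while Myh11 and Cnn1, the genes most restricted to smooth muscle, were the least. In the same libraries 20 fibroblast markers summed to 8537 to 17668 TPM, against 68.0 to 112 TPM for 22 other pericyte genes. Which cells supplied the Pdgfrb and Cspg4 transcripts was not tested. Of the 9 neighbouring pairs in this order, only 3 differed by more than the larger SD of the pair: Cspg4 over Acta2 (higher in 10 of 12 libraries), Kcnj8 over Myh11 (10 of 12) and Myh11 over Cnn1 (12 of 12).

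**Figure D1:**
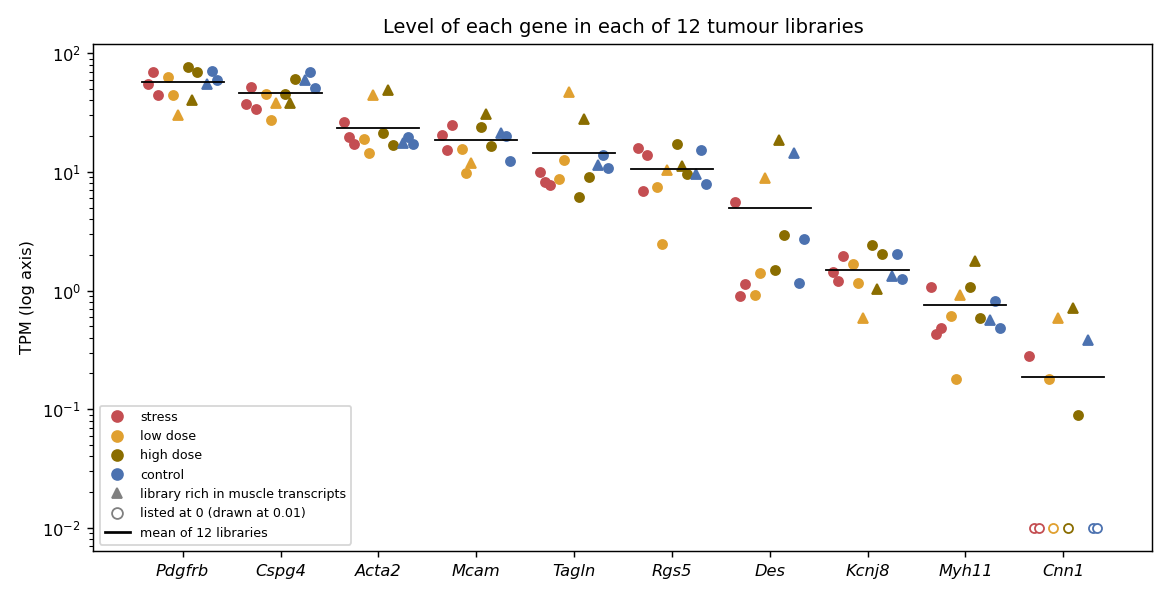
Level in TPM (log axis) of each of the 10 genes in each of 12 libraries, ordered by mean; points are libraries coloured by group, triangles are the 3 libraries rich in muscle transcripts, and black lines are means over 12 libraries. Pdgfrb and Cspg4 sit highest, with means of 56.7 and 46.5 TPM, and Cnn1 was listed at 0 in 6 libraries.

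Libraries also differed in ways the groups do not explain. CPM below is a gene's count scaled to the size of its library, with no correction for length. A skeletal muscle score averaged the log2 CPM of 26 genes such as Acta1 and Ckm, each centred on its own mean, and was 2.24 in low-dose library 3, 3.65 in high-dose library 2 and 2.95 in control library 1. It lay between -1.78 and 0.8 in the other 9 libraries. The 26 genes summed to 129 to 228 TPM in stress tumours, 99.7 to 467 TPM in low-dose tumours, 123 to 1028 TPM in high-dose tumours and 135 to 624 TPM in control tumours. The 3 libraries are called rich in muscle transcripts below, and results that rest on them are given with and without them. Low-dose library 2 stood apart in another way: its deviations from the mean correlated with transcript length across genes at r = -0.5, against -0.15 to 0.29 in the other 11 libraries. Of 14 epithelial markers for the labelled tumour type, 10 were below 1 TPM in every library, among them Epcam, Krt8 and Krt18, with at most 2 counts for Krt8. Sox9 stood at 46.2 to 92.4 TPM and the intestinal galectin gene Lgals4 at 7.54 to 23.1 TPM. The mesenchymal filament gene Vim, picked after its values were seen, stood at 3148 to 3849 TPM.

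None of the 9 genes with enough counts to test passed in any of the 6 comparisons between groups. This was edgeR's quasi-likelihood test with Benjamini-Hochberg adjustment over 13453 genes and a threshold of 0.05. Cnn1 was left out by the filter on low counts. The same test called 0.0% of all genes in each of the 6 comparisons, so a count of 0 matches the background. At an unadjusted p under 0.05, 1 of the 9 genes passed in stress against control (Cspg4), low dose against stress (Tagln), high dose against low dose (Mcam) and low dose against control (Cspg4). The matching shares of all genes were 2.85%, 13.4%, 6.39% and 13.2%. In high dose against stress and high dose against control, 0 of the 9 passed, where 1.42% and 1.04% of all genes did. DESeq2 and limma-voom called 0 of the 9 as well.

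**Figure D2:**
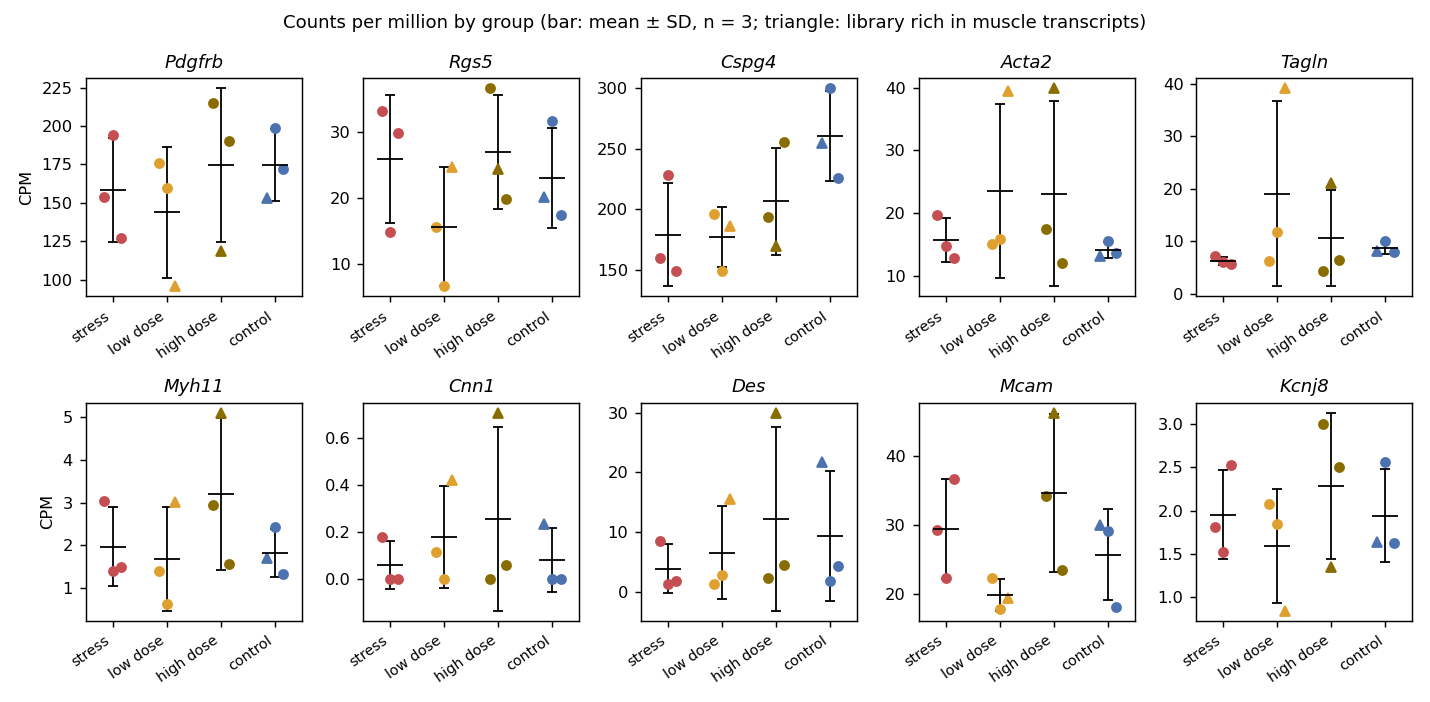
CPM of the 10 genes in stress, low-dose, high-dose and control tumours; each point is a library, bars are mean ± SD (n = 3) and triangles are libraries rich in muscle transcripts. The high points of Acta2, Tagln, Myh11, Cnn1 and Des are mostly triangles, with Des at 30.0 CPM in high-dose library 2.

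Pdgfrb, on chromosome 18, encodes the receptor for PDGF-BB. It had 154, 194 and 127 CPM in stress tumours, 176, 160 and 95.7 CPM in low-dose tumours, 215, 119 and 190 CPM in high-dose tumours and 153, 199 and 172 CPM in control tumours. All 4 groups overlapped, and the lowest library of each group except stress was the one rich in muscle transcripts. Low-dose tumours averaged 144 ± 42.4 CPM and stress tumours 158 ± 33.7 CPM (SD, n = 3 each), a log2 fold change of -0.14 (SE 0.26). Without the 3 libraries rich in muscle transcripts this fold change was 0.09. For high dose against stress it was 0.14 with those libraries and 0.36 without them. High-dose and control tumours both averaged 175 CPM, with a log2 fold change of 0.00 (SE 0.26, edgeR unadjusted p = 0.9995).

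Cspg4, at chr9:56865104-56899870, encodes NG2, a surface proteoglycan of pericytes that is also found on glial precursors and some tumour cells. It had 160, 228 and 149 CPM in stress tumours, 196, 149 and 186 CPM in low-dose tumours, 194, 170 and 256 CPM in high-dose tumours and 255, 300 and 226 CPM in control tumours. Every low-dose library lay below every control library, while 1 stress library, at 228 CPM, lay just above the lowest control library. Low-dose tumours averaged 177 ± 24.7 CPM and control tumours 260 ± 37.2 CPM, a log2 fold change of -0.55 (SE 0.19). Stress tumours averaged 179 ± 42.5 CPM, a log2 fold change of -0.54 (SE 0.19) against control. Neither difference passed: edgeR gave unadjusted p = 0.0135 and adjusted p = 0.322 for low dose, and unadjusted p = 0.0157 and adjusted p = 0.9999 for stress. With trends on transcript length and GC content removed from each library, the low-dose difference from control was -0.30 on the log2 scale. High-dose tumours, at 207 ± 44.4 CPM, differed from control by -0.33 on the log2 scale (SE 0.19, unadjusted p = 0.109).

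Mcam, at chr9:44134658-44142727, encodes CD146, an adhesion molecule of both endothelial and mural cells. It had 29.3, 22.3 and 36.7 CPM in stress tumours, 22.4, 17.9 and 19.4 CPM in low-dose tumours, 34.2, 46.2 and 23.5 CPM in high-dose tumours and 30.0, 29.1 and 18.1 CPM in control tumours. Every high-dose library lay above every low-dose library. High-dose tumours averaged 34.7 ± 11.3 CPM and low-dose tumours 19.9 ± 2.28 CPM, a log2 fold change of 0.80 (SE 0.26, edgeR unadjusted p = 0.00997, adjusted p = 0.758). Without high-dose library 2 it was 0.54, and without the 3 libraries rich in muscle transcripts 0.52. Of 20 endothelial markers 0 passed in this comparison and 19 lay above 0. They summed to 186 to 246 TPM in high-dose tumours and 120 to 200 TPM in low-dose tumours, ranges that overlap. The 120 TPM was in low-dose library 2. These sums are in TPM, while the Mcam difference is in CPM. None of the 20 was below 1 TPM in every library, and their part in the Mcam difference was not tested.

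Rgs5, at chr1:169655501-169695813, encodes a regulator that shortens G protein signalling and is among the best-known pericyte transcripts. It had 33.1, 14.8 and 29.8 CPM in stress tumours, 15.6, 6.61 and 24.7 CPM in low-dose tumours, 36.6, 24.4 and 19.9 CPM in high-dose tumours and 20.1, 31.6 and 17.4 CPM in control tumours. All groups overlapped, and the lowest value was in low-dose library 2. Low-dose tumours averaged 15.7 ± 9.07 CPM and stress tumours 25.9 ± 9.77 CPM, a log2 fold change of -0.73 (SE 0.46, edgeR adjusted p = 0.491). High-dose tumours, at 27.0 ± 8.66 CPM, differed from low-dose tumours by 0.79 on the log2 scale (SE 0.46, adjusted p = 0.758). Without the 3 libraries rich in muscle transcripts, these 2 differences were -1.22 and 1.34.

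Kcnj8, at chr6:142564837-142571614, encodes the pore of an ATP-sensitive potassium channel. Abcc9, at chr6:142587862-142702766, lies next to it and encodes the regulatory subunit that pairs with this pore. Kcnj8 had 1.81, 1.52 and 2.52 CPM in stress tumours, 2.08, 1.84 and 0.843 CPM in low-dose tumours, 3.00, 1.35 and 2.50 CPM in high-dose tumours and 1.64, 2.56 and 1.62 CPM in control tumours. These groups overlapped, and the smallest unadjusted p of the 6 comparisons was 0.222 in edgeR, for high dose against low dose. Abcc9 had 8.16, 4.84 and 9.91 CPM in stress tumours, 6.57, 2.30 and 2.71 CPM in low-dose tumours, 9.67, 6.70 and 8.08 CPM in high-dose tumours and 8.14, 9.82 and 5.34 CPM in control tumours. Low-dose libraries 2 and 3 were the lowest of the 12 for Abcc9. Low-dose tumours differed from stress tumours by -0.98 on the log2 scale (SE 0.4, edgeR adjusted p = 0.341). This difference passed only without low-dose library 1, at -1.61 (adjusted p = 0.0268). In TPM, the ratio of Kcnj8 to Abcc9 was 2.45 in low-dose library 2 and between 0.638 and 1.0 in the other 11 libraries. That library had 32 counts for Kcnj8 and 40 for Abcc9. It is also the library whose deviations correlated with transcript length at r = -0.5, and the part of this in the ratio was not tested.

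Acta2, at chr19:34240336-34255585, encodes smooth muscle alpha-actin, which activated fibroblasts also make. It had 19.7, 14.7 and 12.9 CPM in stress tumours, 15.1, 15.9 and 39.5 CPM in low-dose tumours, 17.4, 39.9 and 12 CPM in high-dose tumours and 13.2, 15.6 and 13.6 CPM in control tumours. Of the 12 libraries, 10 lay within 12 to 19.7 CPM, and the 2 above were low-dose library 3 and high-dose library 2, both rich in muscle transcripts. Control library 1, rich in muscle transcripts too, stood at 13.2 CPM. Low-dose tumours averaged 23.5 ± 13.8 CPM and stress tumours 15.8 ± 3.5 CPM, a log2 fold change of 0.58 (SE 0.45, edgeR adjusted p = 0.582). Actin genes are near-identical in their coding sequence, and how reads shared between them were assigned is not given in the sources used here, so the level of Acta2 is uncertain.

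Tagln, at chr9:45929628-45936058, encodes transgelin (SM22), an actin-binding protein of smooth muscle. Its interval overlaps that of Pcsk7. It had 7.23, 6.0 and 5.79 CPM in stress tumours, 6.29, 11.7 and 39.1 CPM in low-dose tumours, 4.44, 21.1 and 6.39 CPM in high-dose tumours and 8.26, 10.1 and 8.05 CPM in control tumours. Every stress library lay below every control library, by a small margin, while low dose overlapped stress through library 1. Low-dose tumours averaged 19.0 ± 17.6 CPM and stress tumours 6.34 ± 0.78 CPM, a log2 fold change of 1.58 (SE 0.68, edgeR unadjusted p = 0.0407, adjusted p = 0.362). Without low-dose library 3 this log2 fold change was 0.50. Stress tumours and control tumours, the control averaging 8.8 ± 1.14 CPM, differed by -0.47 on the log2 scale (SE 0.68, adjusted p = 0.9999).

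Myh11, at chr16:14194527-14292188, encodes the smooth muscle myosin heavy chain, the most restricted marker of the contractile state. It had 3.03, 1.40 and 1.49 CPM in stress tumours, 1.40, 0.632 and 3.01 CPM in low-dose tumours, 2.94, 5.11 and 1.57 CPM in high-dose tumours and 1.70, 2.44 and 1.32 CPM in control tumours. The groups overlapped throughout. Between 11 and 87 counts lay behind these values, so counting error alone reached 30.2% at the lowest. High-dose tumours averaged 3.21 ± 1.79 CPM and low-dose tumours 1.68 ± 1.21 CPM, a log2 fold change of 0.93 (SE 0.56, edgeR adjusted p = 0.758).

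Cnn1, at chr9:22099221-22109221, encodes calponin, which inhibits the actomyosin of smooth muscle. It had 3, 0 and 0 counts in stress tumours, 2, 0 and 7 in low-dose tumours, 0, 12 and 1 in high-dose tumours and 4, 0 and 0 in control tumours. It was at 0 in 6 of 12 libraries, where a floor of 3 counts per library corresponds to 0.167 to 0.181 CPM, a limit that covers counting error only. In low-dose, high-dose and control tumours, the highest count was in the library rich in muscle transcripts. With 29 counts in all, no difference between groups was detectable at this depth.

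Des, at chr1:75360292-75368579, encodes desmin, the intermediate filament of all muscle and of many pericytes. Its interval overlaps a long non-coding gene, Gm15179. It had 8.57, 1.40 and 1.78 CPM in stress tumours, 1.40, 2.76 and 15.5 CPM in low-dose tumours, 2.28, 30.0 and 4.47 CPM in high-dose tumours and 21.8, 1.80 and 4.32 CPM in control tumours. The 3 highest libraries were the 3 rich in muscle transcripts, and they lay in 3 different groups. Acta1, the skeletal muscle actin gene, had its 3 highest values in the same libraries: 52 CPM in low-dose library 3, 125 CPM in high-dose library 2 and 64.2 CPM in control library 1. High-dose tumours averaged 12.3 ± 15.4 CPM for Des and stress tumours 3.92 ± 4.04 CPM, a log2 fold change of 1.64 (SE 1.29, edgeR adjusted p = 0.9998). Without high-dose library 2, it was -0.21.

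**Figure D3:**
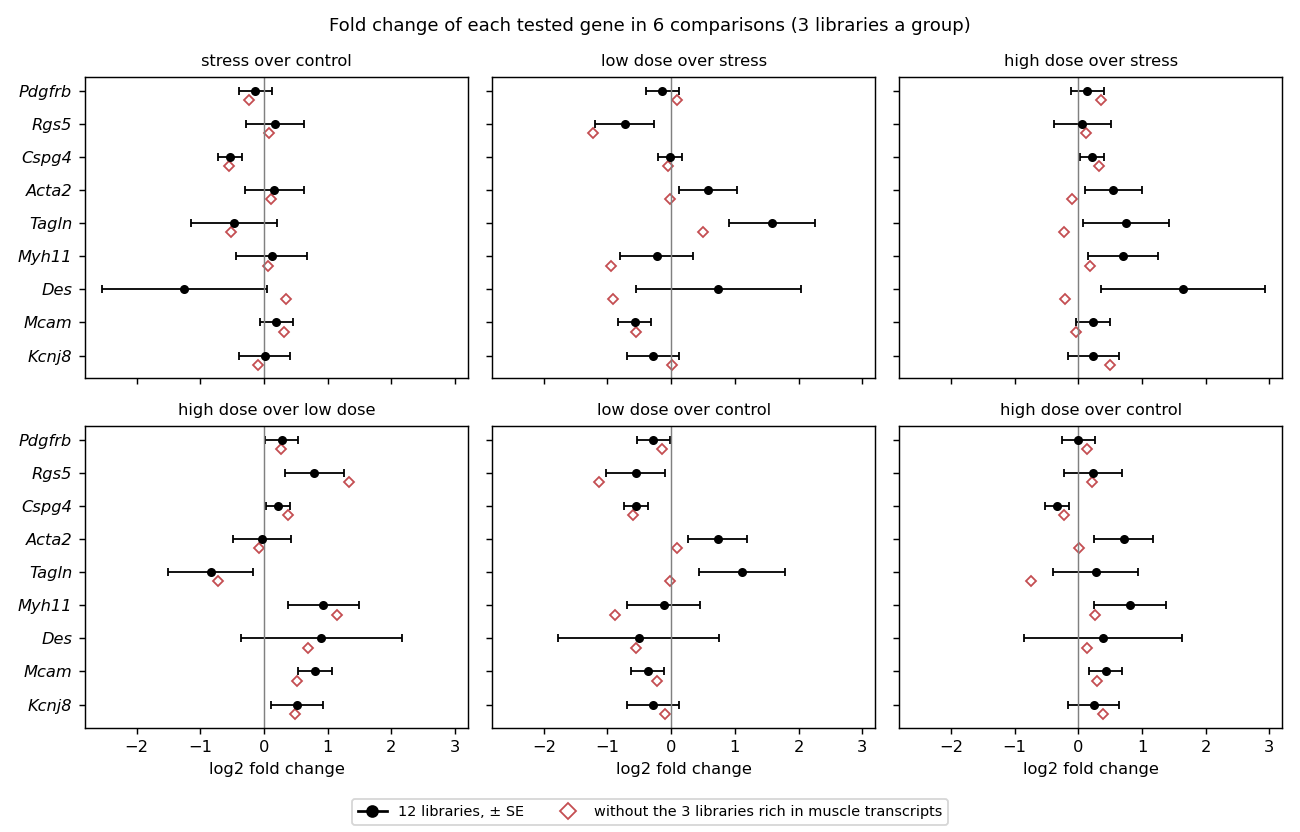
Log2 fold change (x axis) of the 9 tested genes in 6 comparisons, the first-named group over the second; black points with bars are the fit of 12 libraries ± SE, and open diamonds are the fit without the 3 libraries rich in muscle transcripts. Acta2, Tagln and Des move towards or past 0 without those libraries in high dose over stress, while Cspg4 is at -0.55 without them in stress over control, against -0.54 with them.

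Stress tumours against control tumours asked what chronic stress changed. The 9 genes were split, with 5 fold changes above 0 and 4 below and a median of 0.01 on the log2 scale, where 51.7% of all genes lay above 0. Without stress library 1, or without control library 3, 2 of 9 lay above. Groups did not overlap for 1 of the 9, Tagln, lower in stress, and for 14.1% of all genes in either direction. Cspg4 had the largest difference relative to its error, given above. Of 5 other PDGF ligand and receptor genes, 0 passed and 3 lay above 0. Pdgfb, which encodes the ligand of PDGFRB, had 28.5, 36.3 and 21.3 CPM in stress tumours against 46.1, 43.5 and 46.5 CPM in control tumours, with no overlap. Its log2 fold change was -0.66 (SE 0.21, edgeR unadjusted p = 0.00799, adjusted p = 0.9999), which did not pass. Of 19 tested pericyte genes beyond the 10, 0 passed and 6 had fold changes above 0. Of 22 further contractile genes 0 passed. Pdlim7 had the smallest p of these, at -0.36 on the log2 scale (SE 0.14, edgeR unadjusted p = 0.0233, adjusted p = 0.9999).

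Low-dose tumours against stress tumours asked what the lower dose of decoction changed under stress. Of the 9 genes, 3 had fold changes above 0 (Acta2, Tagln and Des) and 6 below, with a median of -0.14 on the log2 scale, where 49.9% of all genes lay above 0. Without stress library 2, without low-dose library 2, or with length and GC trends removed, 5 of 9 lay above. For 0 of the 9 did the groups not overlap, where 11.9% of all genes did not overlap in either direction. The 3 genes above 0 each had their highest low-dose value in library 3, which is rich in muscle transcripts, and without the 3 such libraries Tagln was at 0.50, Acta2 at -0.02 and Des at -0.91 on the log2 scale. Of 19 further pericyte genes, 0 passed and 7 lay above 0. The largest difference relative to its error was in Notch3, a receptor that mural cells need to mature. Notch3 had 8.26, 6.50 and 5.18 CPM in low-dose tumours against 15.3, 13.4 and 13.1 CPM in stress tumours, so every low-dose library was lower. Its log2 fold change was -1.06 (SE 0.18, edgeR unadjusted p = 5.72e-05, adjusted p = 0.234). DESeq2 called it at -1.05 (adjusted p = 0.000326), and edgeR did so without low-dose library 1, at -1.25 (adjusted p = 0.0139), while other alternatives gave adjusted p from 0.126 to 0.732. With length and GC trends removed it was -0.95 (adjusted p = 0.293). Among 22 further contractile genes, 0 passed in edgeR. The smallest p values were those of Pdlim7 (0.70, SE 0.14, edgeR adjusted p = 0.266) and of Vcl, the vinculin gene (-0.52, SE 0.11, edgeR adjusted p = 0.266). DESeq2 called both, in opposite directions (Pdlim7 adjusted p = 0.00589, Vcl adjusted p = 0.00675). So did edgeR without low-dose library 1 (adjusted p = 0.0139 and 0.0243). Other alternatives gave adjusted p from 0.204 to 0.732 for Pdlim7 and from 0.22 to 0.732 for Vcl.

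High-dose tumours against stress tumours asked what the higher dose changed. All 9 genes had fold changes above 0, with a median of 0.23, where 48.9% of all genes lay above 0, and 0 of the 9 had groups that did not overlap, against 5.75% of all genes in either direction. The direction rested on single libraries: without high-dose library 2, rich in muscle transcripts, 5 of 9 lay above 0, and without high-dose library 1 6 of 9 did. Of the 20 endothelial genes 19 lay above 0, with a median of 0.30, and 0 passed. Without stress library 2, 11 of the 20 did. Of 19 further pericyte genes 12 lay above 0 with a median of 0.08, and 0 passed. The smallest unadjusted p among the 9 genes was 0.23 in edgeR, for Myh11, at 0.70 (SE 0.55).

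High-dose tumours against low-dose tumours compared the doses. Of the 9 genes, 7 had fold changes above 0, with a median of 0.52, where 50.8% of all genes lay above 0. Acta2 at -0.03 and Tagln at -0.84 were below. Groups did not overlap for 1 of the 9, Mcam, higher at the high dose, and for 7.34% of all genes in either direction. Of the 20 endothelial genes 19 lay above 0, among them Cldn5, a tight junction gene, at 1.18 (SE 0.35, edgeR unadjusted p = 0.0051, adjusted p = 0.758). Notch3 had 14.8, 11.5 and 12.2 CPM in high-dose tumours against 8.26, 6.50 and 5.18 CPM in low-dose tumours, with no overlap. Its log2 fold change was 0.95 (SE 0.18, edgeR adjusted p = 0.549), which DESeq2 called at 0.94 (adjusted p = 0.00659). Without low-dose library 1, edgeR called it at 1.14 (adjusted p = 0.0435), while the smallest adjusted p of the other alternatives was 0.474.

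Low-dose tumours against control tumours set the stressed and treated against neither. Of the 9 genes, 2 lay above 0 (Acta2 at 0.73 and Tagln at 1.11) and 7 below, with a median of -0.29, where 50.5% of all genes lay above 0. That count was 1 without the 3 libraries rich in muscle transcripts. Groups did not overlap for 1 of the 9, Cspg4, lower at the low dose, and for 17.4% of all genes in either direction. Without the 3 libraries rich in muscle transcripts, Tagln was at -0.02 and Acta2 at 0.09 on the log2 scale. Pdgfb had 25.8, 28.2 and 40.0 CPM in low-dose tumours against 46.1, 43.5 and 46.5 CPM in control tumours, a log2 fold change of -0.53 (SE 0.21, edgeR adjusted p = 0.334). Of 19 further pericyte genes, 6 lay above 0 with a median of -0.59, and 0 passed in edgeR. Notch3 had 8.26, 6.50 and 5.18 CPM in low-dose tumours against 12.3, 11.3 and 11.7 CPM in control tumours, with no overlap. Its log2 fold change was -0.82 (SE 0.18, edgeR unadjusted p = 0.000563, adjusted p = 0.316). DESeq2 called it (-0.80, adjusted p = 0.0178), and edgeR did so without low-dose library 1, at -1.01 (adjusted p = 0.026), while other alternatives gave adjusted p from 0.181 to 0.721. Abcc9 also passed in edgeR without that library, at -1.63 (adjusted p = 0.0327). High-dose tumours against control tumours gave 8 of 9 fold changes above 0, with a median of 0.27, against 50.5% of all genes. For 0 of the 9 did those groups not overlap, against 8.7% of all genes in either direction. Cspg4 was the exception below 0, Pdgfrb stood at 0.00, and without high-dose library 1 only 5 of 9 lay above. These comparisons share groups, so they are not independent of each other.

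The regulators of the contractile genes were unequal in level. Srf stood at 29.2 ± 2.04 TPM over the 12 libraries, while Myocd, which encodes myocardin, stood at 0 to 0.07 TPM. Of 15 tested SRF and myocardin regulators, 0 passed in any comparison in edgeR. The smallest unadjusted p values were in low dose against stress, with Tead1 at -0.48 (SE 0.11, edgeR adjusted p = 0.293) and Fhl2 at 0.64 (SE 0.19, edgeR adjusted p = 0.296). DESeq2 called Tead1 there (-0.46, adjusted p = 0.0224), and edgeR did so without low-dose library 1 (-0.57, adjusted p = 0.0237). Other alternatives gave adjusted p from 0.207 to 0.732. Of the PDGF list, Pdgfa had the smallest p in low dose against stress, at 0.71 (SE 0.16, unadjusted p = 0.000861, adjusted p = 0.266 in edgeR). DESeq2 called it (0.73, adjusted p = 0.0165), and edgeR did so without low-dose library 1 (0.86, adjusted p = 0.0202). Other alternatives gave adjusted p from 0.16 to 0.732 for Pdgfa. Pdgfra, the receptor of fibroblasts, did not pass in any comparison. Of 18 genes listed for G protein and vasoactive signalling, 9 were below 1 TPM in every library. Among them were Kcnj11, Agtr1a and the 3 alpha-1 adrenergic receptor genes Adra1a, Adra1b and Adra1d. Across 13 lists, 168 of 216 entries could be tested, and 0 passed in any comparison in edgeR with all 12 libraries. Without low-dose library 1, edgeR called 9 of the 71 list genes that were tried under every alternative: Notch3, Abcc9, Pdgfa, Pdlim7, Vcl, Tead1, Fhl2, Gata6 and Sox9. Over all genes, that setting called 1244 in low dose against stress and 99 in high dose against low dose. Its count for low dose against control is given further below. The 71 are only part of the tested list genes, so 9 of 71 is not a rate for the lists.

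The genes differed widely in their spread between libraries. The SD of log2 CPM over 12 libraries was 1.54 for Des, 0.88 for Tagln, 0.74 for Myh11, 0.67 for Rgs5 and 0.58 for Acta2, against a median of 0.21 over all genes tested. It was 0.47 for Kcnj8, 0.43 for Mcam, 0.34 for Pdgfrb and 0.33 for Cspg4. In their lowest libraries, counting error alone was 30.2% for Myh11, 26.7% for Kcnj8 and 20.4% for Des. The all-gene median was not matched for count level, so it is a rough reference for genes with few counts. Without the 3 libraries rich in muscle transcripts, the SD was 0.42 for Tagln, 0.22 for Acta2 and 0.86 for Des, while for Rgs5 it was 0.78. Acta2 thus came down to near the all-gene median of 0.20 in those 9 libraries, and Rgs5 did not.

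Since 3 libraries stood apart in muscle transcripts, correlations between the genes were taken over the other 9. Of 36 pairs, 2 passed with Pearson's r and 1 with Spearman's rho, by exact permutation tests with Benjamini-Hochberg adjustment over the 36. Rgs5 and Myh11 gave r = 0.93 and rho = 0.92 (exact permutation p = 0.000262 and 0.00131, adjusted p = 0.00942 and 0.0472). Rgs5 and Mcam gave r = 0.86 and rho = 0.85 (exact permutation p = 0.00268 and 0.00607, adjusted p = 0.0482 and 0.109), so only r passed. Over all 12 libraries these r were 0.78 for Myh11 and 0.65 for Mcam, and the second did not pass there (permutation test, adjusted p = 0.0489 and 0.0667). Some other pairs were weaker in the 9. Acta2 and Tagln gave r = 0.83 over 12 libraries and 0.07 over the 9, and Pdgfrb and Kcnj8 gave 0.72 and 0.19. Others were stronger in the 9, such as Pdgfrb and Cspg4, at r = 0.51 over 12 libraries and 0.72 over the 9. Within the 9, without the 2 libraries farthest from the median of Rgs5, r with Rgs5 was 0.79 for Myh11 and 0.82 for Mcam. The same step over all 12 libraries gave 0.58 and 0.54. Pdgfrb and Cspg4, the most abundant pair, gave r = 0.72 and rho = 0.70, which did not pass (exact permutation p = 0.0254 and 0.0433, adjusted p = 0.229 and 0.389). Pdgfrb and Rgs5, both pericyte markers, gave r = 0.09, which did not pass. Tagln gave r = -0.52 with Rgs5 and r = -0.47 with Myh11 over the 9, and neither passed.

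**Figure D4:**
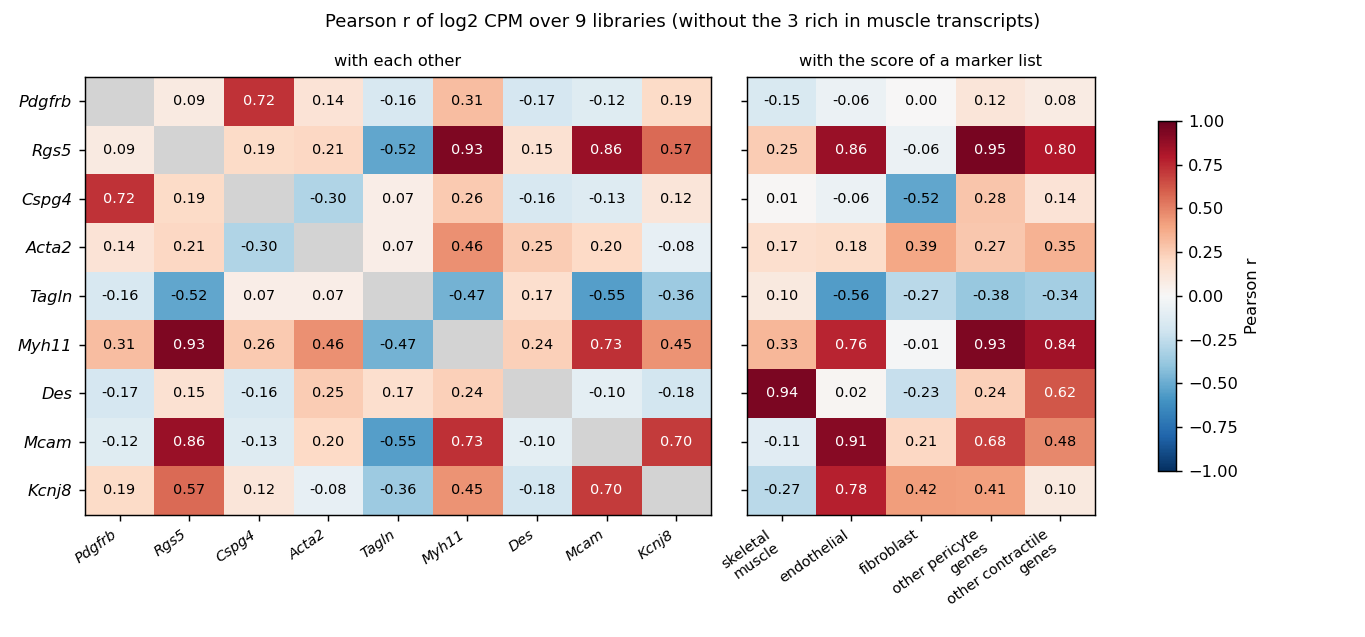
Pearson r of log2 CPM over the 9 libraries that are not rich in muscle transcripts, for each pair of the 9 tested genes (left) and for each gene with the score of 5 marker lists (right); red is above 0 and blue below. Rgs5 is red with Myh11 (0.93) and with Mcam (0.86), the pairs that passed. Myh11 and Mcam (0.73), Mcam and Kcnj8 (0.70) and Rgs5 and Kcnj8 (0.57) are red too but did not pass. Des pairs with the skeletal muscle score, and Pdgfrb and Cspg4 reach 0.72 with each other, which did not pass.

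The same 9 libraries set the genes beside scores of marker lists, each the mean centred log2 CPM of its tested genes without the 10. Of 45 relations, 5 passed with Pearson's r and 2 with Spearman's rho, by exact permutation tests adjusted over the 45. Rgs5 followed the other pericyte genes at r = 0.95 and rho = 0.90 (exact permutation p = 0.000369 and 0.00203, adjusted p = 0.00911 and 0.0456). Mcam followed the endothelial genes at r = 0.91 and rho = 0.97 (exact permutation p = 0.000405 and 0.000165, adjusted p = 0.00911 and 0.00744). These 2 relations held on both measures, and without the 2 libraries farthest from the median of the score r was 0.85 and 0.80. Des followed the skeletal muscle genes at r = 0.94 and rho = 0.83 (exact permutation p = 0.00106 and 0.00827, adjusted p = 0.0096 and 0.062). Myh11 gave r = 0.93 and rho = 0.82 with the other pericyte genes (exact permutation p = 0.00107 and 0.0108, adjusted p = 0.0096 and 0.0692). Rgs5 gave r = 0.86 and rho = 0.87 with the endothelial genes (exact permutation p = 0.00073 and 0.00451, adjusted p = 0.0096 and 0.062). For those 3 relations rho did not pass. Over all 12 libraries r was 0.90 for Rgs5 with the other pericyte genes, 0.88 for Mcam with the endothelial genes, 0.99 for Des with the skeletal muscle genes, 0.77 for Myh11 with the other pericyte genes and 0.76 for Rgs5 with the endothelial genes. Pdgfrb and Cspg4 gave r = 0.12 and 0.28 with the other pericyte genes, and neither passed. Low-dose library 2, whose deviations correlated with transcript length at r = -0.5, is among the 9. It had the lowest pericyte and endothelial scores, both -0.66, and the lowest Rgs5 and Mcam values. The 9 libraries also share their 4 groups and differ in depth. The part of transcript length, group or depth in these relations was not tested.

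**Figure D5:**
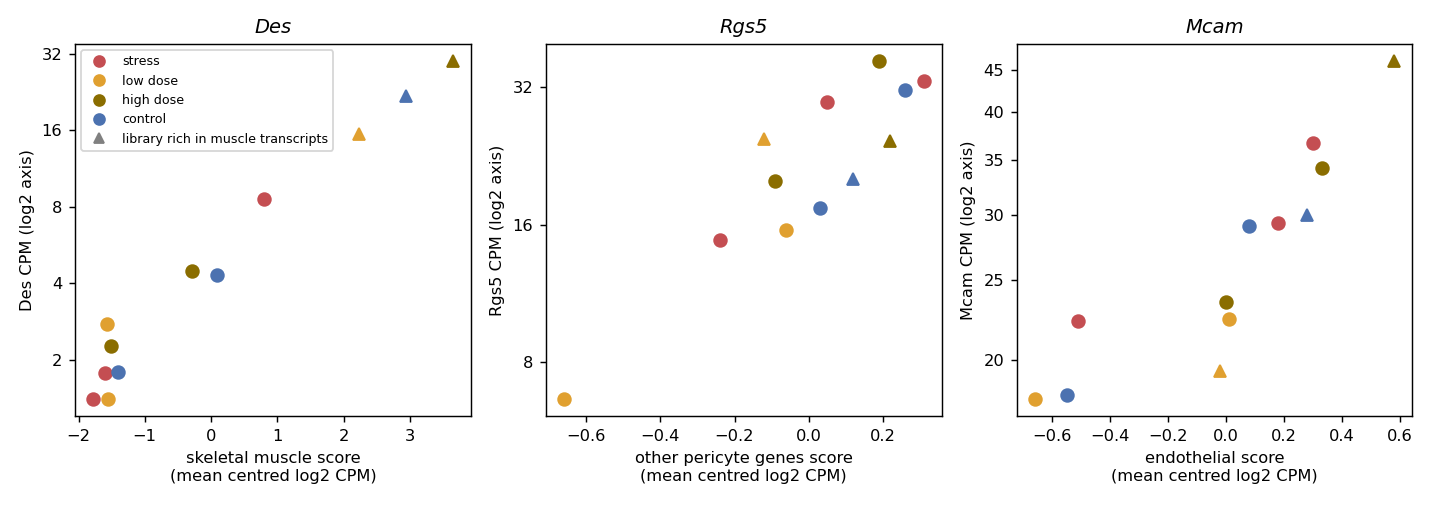
CPM (log2 axis) of Des, Rgs5 and Mcam against the score of skeletal muscle, other pericyte and endothelial genes in 12 libraries; colours are groups and triangles are libraries rich in muscle transcripts. Des ranges between 1.40 and 30.0 CPM along the muscle score, and the lowest Rgs5 and Mcam values, 6.61 and 17.9 CPM, are both in low-dose library 2, which also has the lowest pericyte and endothelial scores.

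The genes most alike to each of the 9 were ranked by Pearson r of log2 CPM among 12156 genes with a mean of at least 1 TPM. The ranking is over all 12 libraries unless the 9 are named, with the r in the 9 beside some. For Des these were the skeletal muscle genes Acta1 (r = 0.989, and 0.963 in the 9), Mybpc1 and Mb. For Mcam they were Erg (0.913, and 0.978 in the 9), Tie1 and Adgrf5, all expressed in endothelium. For Rgs5 they were Map4k4 (0.912), the pericyte gene Higd1b (0.910) and Sipa1l3 (0.879), while over the 9 libraries they were Mfng (0.981), Met (0.961) and Abcc9 (0.95), which gave 0.831, 0.685 and 0.72 over the 12. Acta2 ranked with Pdia4 (0.947), the cytoplasmic actin gene Actb (0.923) and Panx1 (0.908), which gave 0.649, 0.63 and 0.415 in the 9. The closest to Tagln were Slc25a5, Parvb and Nop2, to Myh11 Aco1, Xpo6 and Rrbp1, and to Kcnj8 Capn6, Ephb3 and Cplx2. Pdgfrb stood closest to Capn5 (0.944), Dclk1 and Narf, and Cspg4 to C330007P06Rik (0.958), Afap1l2 and Stag2. None of the 10 mural genes was a candidate in this ranking.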

How the data were processed

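Each of the 12 deposited tables holds the authors' estimated count, FPKM and TPM per gene. Per the submitters' processing notes, reads were trimmed with cutadapt 1.9, aligned to GRCm38.p6 with HISAT2 2.0.4 and quantified with StringTie 1.3.4d, and DESeq2 and edgeR are named as well. The counting options and annotation are not given in the sources used here. The library kit marks strand, per the labels' protocols. Between 11.74% and 12.49% of the deposited estimated counts in a library were not whole, and they were rounded. The TPM values of the authors were used for levels between genes and were not tested. FPKM values were not used. Of 17875 genes, 17820 matched RefSeq's GRCm38.p6 gene table by Entrez ID. It gave the coordinates and restored 26 symbols that had turned into dates. Transcript length and GC content came from GENCODE M21.

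CPM is the rounded count scaled to its library's TMM-adjusted total. The main test was edgeR 4.0.16 (robust quasi-likelihood, filter minimum count 10, TMM) on all 12 libraries in 1 model with 4 groups, 2-sided, adjusted over 13453 genes (common dispersion 0.038, 8 residual degrees of freedom, median SE of a log2 fold change 0.164). It was also run on simulated counts with changes in stress only, and the outcome is not given here. The simulated counts held no libraries rich in muscle transcripts or with a length trend, so that run cannot show how the test handles those. DESeq2 1.42.0 and limma 3.58.1 were alternatives, as were other filters and scaling, a replicate block, a muscle covariate and libraries left out. Removing length and GC trends was chosen after seeing the data. Replicate numbers pair no samples by the labels, and same-numbered libraries correlated at -0.45 to 0.42, above 0.1 in 3 of 18 pairs. Correlations used log2 CPM with a prior count of 2, with exact permutation over 9 libraries in scipy 1.17.1. All 10 genes were named, with at most 2 or 3 per further list by smallest p and a fixed set (Abcc9, Pdgfb, Notch3, Myocd, Srf, Pecam1, Cdh5, Pdgfra, Acta1, Ckm). Of that set, the endothelial genes Pecam1 and Cdh5 averaged 15.5 ± 4.38 and 11.2 ± 3.2 TPM (SD) over the 12 libraries. Pdgfra averaged 25.0 ± 9.03 TPM and Ckm 9.11 ± 17.4 TPM. The members and lists were chosen with earlier results of these data known. Replicate pairs differed beyond counting noise (dispersion index 6.56 to 81.1), so no library was counted as a duplicate. Flags for single outlying libraries need groups of at least 4 and were not applied.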

Additional observations from a re-analysis of the deposited data

How the results depend on the processing

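No test of the 9 genes passed under any of 22 alternative settings (1182 gene and comparison results, smallest adjusted p 0.0817, for Tagln in low dose against stress). Directions were less stable: leaving out 1 library turned the sign, at 2 decimals, in 28 of 54 gene and comparison results, and each of the 9 genes turned in at least 1 comparison. The replicate block gave 0 of 9 genes in each comparison, and Cspg4 in stress against control stayed at -0.54. The replicate numbers do not pair the libraries, since 5 of 12 correlated best with their own number. Over all genes, edgeR called 0 in each comparison. DESeq2 called 1 gene in stress against control, 98 in low dose against stress, 5 in high dose against low dose, 73 in low dose against control, 1 in high dose against control and 0 in high dose against stress. Without low-dose library 1, edgeR called 1244 in low dose against stress, 99 in high dose against low dose and 652 in low dose against control. Of the other settings, 1 gene was called in high dose against control with only the 6 libraries compared, in the same and in high dose against low dose without stress library 1, and in low dose against control without the 3 libraries rich in muscle transcripts. The cause was not tested.

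The number of pairs of genes correlated past the threshold by Pearson's r was 6 over 12 libraries, 5 on log2(TPM + 1), 2 without the 3 libraries rich in muscle transcripts and 12 on deviations from the group means. The last count came from shuffling deviations across all 12 libraries, though they sum to 0 within each group. It is therefore not comparable with the other counts. Leaving out 1 library at a time gave 0 to 9 pairs, and by Spearman's rho 0 pairs passed over 12 libraries. Depth limits Cnn1, Kcnj8 and Myh11 most, with 29, 403 and 448 counts in 12 libraries, and the minimum count of 50 left Kcnj8 untested.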
